A study of Caenorhabditis elegans with 6 samples.

Results

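The fatty acid desaturases of Caenorhabditis elegans are 7 genes, fat-1 to fat-7, which were taken by symbol from the deposited table of 20473 genes. All 7 were found, each as 1 entry with a WormBase identifier, and all 7 passed the filter on low counts. Whole wild-type worms of the N2 strain were sampled for RNA sequencing, with 3 control libraries (0 µg/L diquat dibromide monohydrate) and 3 diquat libraries (100 µg/L), after 72 h at 20 °C. Diquat is a bipyridyl herbicide that redox cycles and so yields superoxide. Their stage at the start was not stated in the sources used here. Nor do the labels say whether replicates were separate cultures, and p-values therefore cover the spread between these 6 libraries alone, which may be technical.

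Desaturases are membrane enzymes of the endoplasmic reticulum that put double bonds into fatty acyl chains, using oxygen and electrons passed on by cytochrome b5. The worm makes its unsaturated fatty acids in a chain of steps. The delta-9 desaturases put in the first double bond: FAT-5 acts mainly on palmitic acid, and FAT-6 and FAT-7 act mainly on stearic acid to give oleic acid. FAT-2, a delta-12 desaturase, turns oleic into linoleic acid, and FAT-1, an omega-3 desaturase, turns omega-6 into omega-3 fatty acids. FAT-3, a delta-6 desaturase, and FAT-4, a delta-5 desaturase, then act on either side of an elongation step to give arachidonic and eicosapentaenoic acid. Polyunsaturated acyl chains are readily attacked by reactive oxygen species, whereas monounsaturated ones are more resistant. The delta-9 genes are known targets of the nuclear hormone receptors NHR-49 and NHR-80, of SBP-1 (the worm's SREBP) and of the Mediator subunit MDT-15.

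In the WBcel235 annotation the family lies on chromosomes IV and V. fat-4 (chromosome IV, 9799429 to 9802226) and fat-3 (9803023 to 9806119) are direct neighbours on the plus strand, 796 nucleotides apart. fat-1 (chromosome IV, 13315644 to 13318811) and fat-2 (13323873 to 13326395) are also neighbours on the plus strand, with 5061 nucleotides and 0 protein-coding genes between them. The delta-9 genes are dispersed: fat-6 is on the minus strand of chromosome IV (11913692 to 11915687), and fat-7 (7151353 to 7153146, minus strand) and fat-5 (17725004 to 17726818, plus strand) are on chromosome V. The exons sum to between 1104 nucleotides (fat-5) and 1540 nucleotides (fat-4). fat-6, fat-4 and fat-3 have 3, 3 and 4 annotated transcripts, fat-2 has 2, and fat-1, fat-5 and fat-7 have 1 each.

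The total count was between 23390547 and 24593469 per library. The labelled source, the whole worm, could be checked against marker lists: all 12 intestine, 12 epidermis, 10 body muscle, 9 pharynx, 10 neuron and 12 germline and oocyte markers passed the count filter, as did 7 of 10 sperm markers. Of these, 5 sperm markers fell, msd-1, spch-2, gsp-3 and gsp-4 among them, with a list median log2 fold change of -1.31 and a summed level of 28.4 to 33.6 CPM in control and 10.9 to 14.6 CPM with diquat. No marker of the epidermis, muscle, pharynx, neurons or germline passed the test given next, with list medians of 0.00, -0.20, -0.09, 0.05 and 0.00. With the replicate block described below, 3 epidermis markers (bli-1, col-19 and dpy-13) and 5 muscle markers, tnt-2, unc-27, lev-11 and unc-54 among them, were called lower. The part of these markers in the desaturase differences was not tested. Across the table, 13252 genes went into the quasi-likelihood test of edgeR, adjusted after Benjamini and Hochberg with a threshold of 0.05. It called 0 genes (0.0%) higher and 121 (0.913%) lower with diquat. The 0 rises compare with 204 at an unadjusted p under 0.05, with 2 by DESeq2 and with 0 by limma-voom. With the replicate number as a block, which treats same-numbered libraries as pairs, 598 genes (4.51%) were higher and 530 (4.0%) lower. The labels give both groups numbers 1 to 3 and state no shared culture or day.

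Per unit of length, the family spanned about 2 orders of magnitude in level. Levels between genes are given as the deposited FPKM, which is scaled to gene length and library total. fat-2 was highest, at 684, 660 and 710 FPKM in the control libraries and 777, 661 and 765 FPKM in the diquat libraries. It was above fat-1 in all libraries, at 1.43 times the mean fat-1 level in control and 1.45 times with diquat. fat-1 (480 ± 17.5 FPKM, SD, n = 3) and fat-6 (480 ± 56.5 FPKM) had overlapping control levels. In the diquat libraries fat-6 (557 ± 37.0 FPKM) was above fat-1 (507 ± 44.5 FPKM) within each of the 3 libraries, although the ranges overlapped. In the control libraries fat-1 was the higher in 2 of 3. The deposited FPKM of fat-6 implies a length of 1198 to 1209 nucleotides, depending on the library, against 1166 nucleotides of annotated exon.

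fat-4 was next, at 249 ± 11.2 FPKM in control and 274 ± 36.0 FPKM with diquat, followed by fat-3 at 127 ± 12.8 and 143 ± 26.3 FPKM. The ranges of these neighbours in the order did not overlap within either group. Between fat-3 and fat-5 the level dropped 12.2-fold in control libraries. fat-5 stood at 10.4 ± 0.613 FPKM and fat-7 at 7.11 ± 1.299 FPKM, again with ranges apart. fat-2, fat-1, fat-6 and fat-4 ranked 202, 267, 268 and 456 among all 20473 genes by mean control FPKM, and fat-3 883, while fat-5 and fat-7 ranked 6130 and 7288. Among the delta-9 genes nearly all transcript was fat-6: fat-5 made up 2.11 ± 0.133% and fat-7 1.43 ± 0.216% of their summed FPKM in control.

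**Figure D1:**
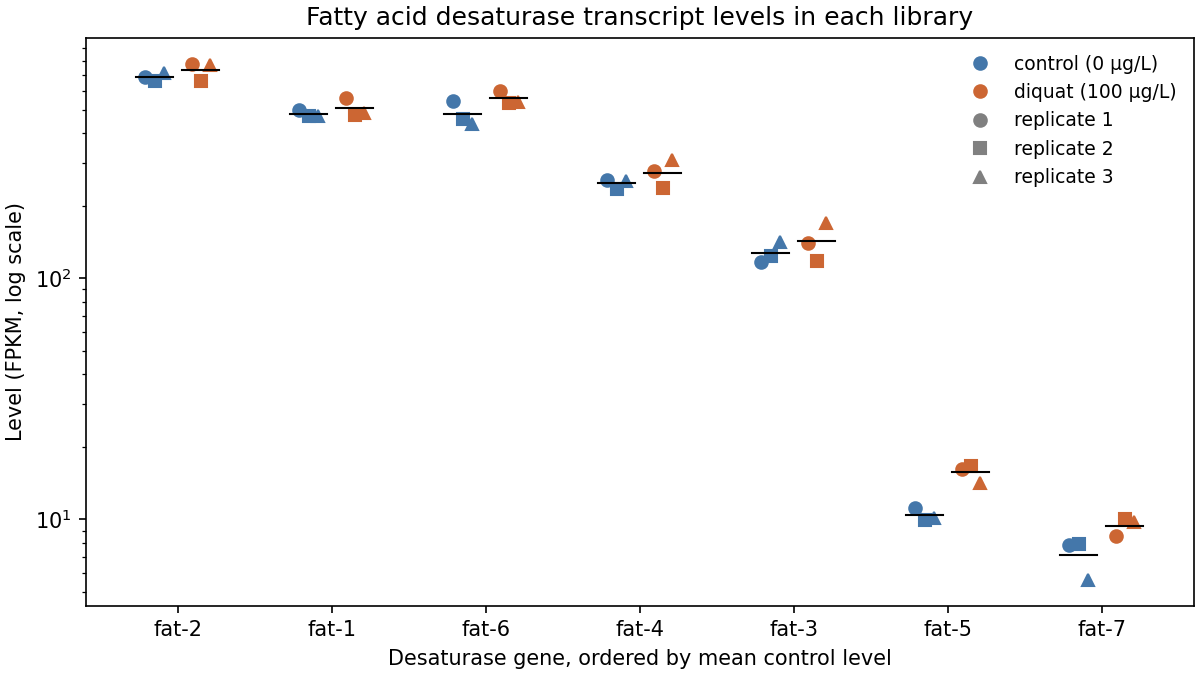
FPKM (log scale) of the 7 desaturase genes in each of the 6 libraries, ordered by mean control level, with colours for the groups, symbols for the replicate numbers and black lines for the group means. fat-2, fat-1, fat-6, fat-4 and fat-3 lie above 100 FPKM and fat-5 and fat-7 near 10. The diquat libraries all lie above the control libraries for fat-5 and fat-7. The share of all genes apart in FPKM was not counted.

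The comparison addresses whether transcripts of these enzymes changed in worms exposed to diquat at 100 µg/L. Without the replicate block 0 of the 7 passed the test in either direction, against the 0.0% and 0.913% of all genes above. With it fat-5 and fat-6 were called higher, 2 of 7 beside 4.51% of all tested genes, and 0 of 7 lower. All 7 had a log2 fold change above 0, as had 52.7% of all tested genes, and the median of the family was 0.12 beside 0.01 over all tested genes. The delta-9 genes had the 3 largest values (0.18 to 0.56), and the 4 polyunsaturated fatty acid genes lay between 0.04 and 0.12. Values for single genes below are TMM-scaled CPM, counts scaled to the library total with a correction for composition.

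fat-5, the palmitoyl-CoA desaturase, was at 12.3, 11.99 and 10.8 CPM in control libraries 1 to 3 and at 17.5, 19.8 and 14.3 CPM in diquat libraries 1 to 3. The groups did not overlap, and the lowest diquat library was above the highest control library. On this scale such a separation with diquat higher held for 1 of the 7 desaturases and for 4.07% of all tested genes. The log2 fold change was 0.56 (a fold of 1.47, 95% interval 1.16 to 1.87, standard error 0.16; edgeR adjusted p = 0.227). By size, 2.23% of tested genes had a larger log2 fold change, and by unadjusted p fat-5 ranked 7 among the genes higher with diquat. At an unadjusted p under 0.05, 1 of the 7 was higher (fat-5), beside 1.54% of all tested genes. When single libraries were left out, the log2 fold change of fat-5 lay between 0.44 (without diquat 2) and 0.66 (without diquat 3).

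With the replicate block fat-5 was called higher, at a log2 fold change of 0.55 (adjusted p = 0.00180 in edgeR, 95% interval 0.32 to 0.78). Its same-numbered differences were 0.51, 0.72 and 0.41 on the log2 scale. The blocked call was lost without pair 1 (adjusted p = 0.0578) and held without pair 2 (0.0334) or pair 3 (0.00500). DESeq2 with the block also called fat-5 and none of the other 6 (adjusted p = 0.0201, with 1.02% of its genes called higher). In the authors' deposited table fat-5 had an FDR of 0.146 and the other 6 an FDR of 0.998, so 0 of 7 passed there, beside 0.00977% of all its genes higher and 0.752% lower at an FDR under 0.05.

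fat-7, which encodes a stearoyl-CoA desaturase, was at 8.81, 9.67 and 6.06 CPM in control and at 9.40, 12.1 and 10.05 CPM with diquat, from 149 to 265 counts per library. The groups overlapped, since diquat 1 was below control 2, and control 3 was the lowest library. On the FPKM scale, which lacks the composition correction, they did not overlap (7.84, 7.88 and 5.61 FPKM in control, 8.505, 10.01 and 9.76 FPKM with diquat). The share of all genes apart on the FPKM scale was not counted. The log2 fold change was 0.36 (fold 1.29, 95% interval 0.961 to 1.72; edgeR adjusted p = 0.819, blocked 0.0943). Its same-numbered differences were 0.09, 0.32 and 0.73 on the log2 scale. Without control 3 the log2 fold change was 0.20, and without control 2 it was 0.50, the extremes when single libraries were left out.

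fat-6 encodes the other stearoyl-CoA desaturase and carries most of the delta-9 transcript. It was at 654, 599 and 504 CPM in control and at 705, 692 and 591 CPM with diquat. The groups overlapped, because diquat 3 was below controls 1 and 2. In each same-numbered pair the diquat library was nevertheless the higher, by 0.11, 0.21 and 0.23 on the log2 scale. The log2 fold change was 0.18 (fold 1.13, 95% interval 0.931 to 1.38; edgeR adjusted p = 0.820), and with the block it was 0.18 with an interval of 0.08 to 0.29 (edgeR adjusted p = 0.0265). The blocked call was lost without pair 1 (adjusted p = 0.3002) or pair 2 (0.282) and held without pair 3 (0.0416), and DESeq2 with the block did not make it (0.0534). The unblocked log2 fold change was 0.10 without control 3 and 0.27 without control 1, the extremes when single libraries were left out. All 3 delta-9 genes, and none of the other 4, were higher with diquat in all 3 same-numbered pairs, as were 23.1% of all tested genes.

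**Figure D2:**
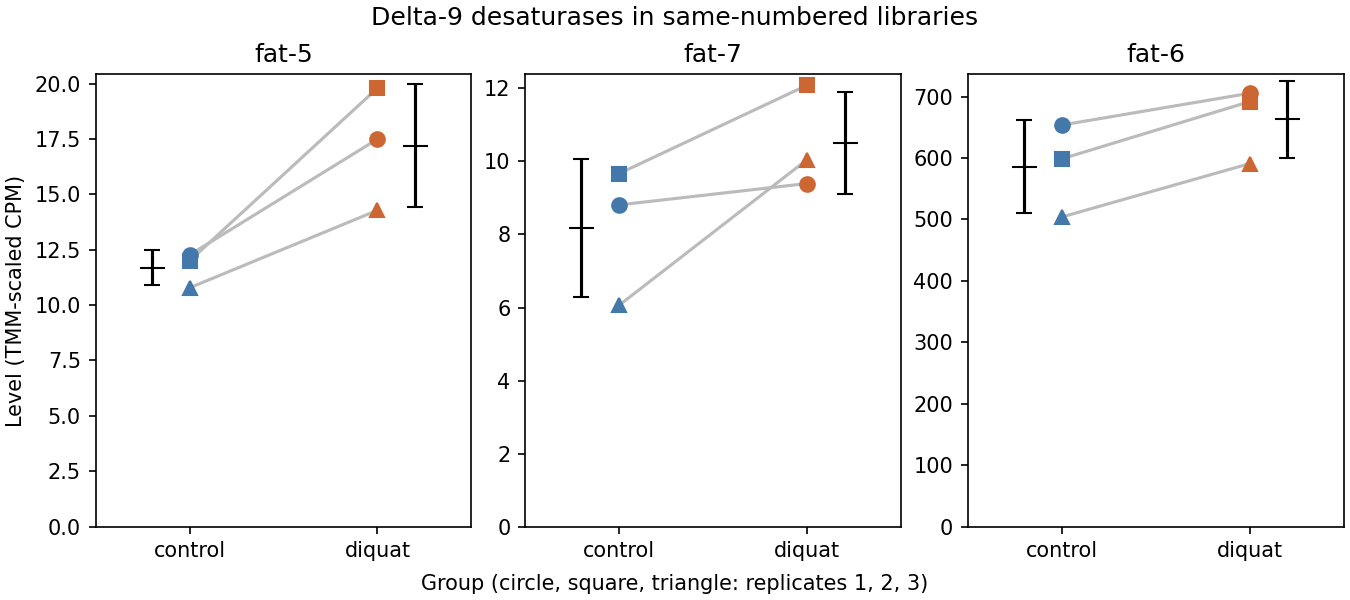
TMM-scaled CPM of fat-5, fat-7 and fat-6 (linear axes from 0, a different scale in each panel) in control and diquat libraries, with grey lines joining same-numbered libraries and bars at the side for mean ± SD (n = 3). The diquat library is the higher in every pair, by 0.09 (fat-7, number 1) to 0.73 (fat-7, number 3) on the log2 scale, but on this scale the groups are apart for fat-5 alone of these 3.

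fat-6 and fat-7 are close paralogs, and the placing of reads that fit both was not stated in the sources used here, so the split between them is uncertain. Their summed level, which still weights each gene by its own length, was 552, 464 and 444 FPKM in control and 608, 544 and 548 FPKM with diquat, and the groups overlapped through control 1, which was above diquat 2 and diquat 3. The ratio of fat-6 to fat-7 was 68.5 ± 10.1 in control and 59.7 ± 9.46 with diquat (SD, n = 3), with overlapping ranges. The share of fat-5 in the delta-9 sum was 1.98%, 2.10% and 2.24% in control and 2.59%, 2.98% and 2.52% with diquat, which did not overlap. The fat-5 level itself did not overlap between groups, so its share is not a separate observation.

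The polyunsaturated fatty acid genes showed small differences. fat-2, which feeds the whole branch, was at 872, 918 and 871 CPM in control and at 974, 904 and 894 CPM with diquat. Diquat 2 and diquat 3 were within the control range (log2 fold change 0.06, fold 1.04, 95% interval 0.879 to 1.24; edgeR adjusted p = 0.924, blocked 0.545). Without diquat 1 the log2 fold change of fat-2 was 0.03, and without control 2 it was 0.08. fat-1, the omega-3 desaturase, was at 708, 724 and 640 CPM in control and at 776, 724 and 630 CPM with diquat. Both groups had their lowest value in library 3, and the ranges overlapped (log2 fold change 0.04, fold 1.03, 95% interval 0.856 to 1.23; edgeR adjusted p = 0.955, blocked 0.735). Leaving out 1 library moved the log2 fold change of fat-1 between -0.02 (diquat 1) and 0.11 (diquat 3).

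fat-3 and fat-4 encode front-end desaturases, which insert double bonds toward the carboxyl end of the chain. fat-3 was at 174, 201 and 203 CPM in control and at 206, 188 and 232 CPM with diquat, with overlap through diquat 2 (log2 fold change 0.12, fold 1.09, 95% interval 0.909 to 1.29; edgeR adjusted p = 0.845, blocked 0.311). fat-4 was at 395, 397 and 376 CPM in control and at 421, 392 and 436 CPM with diquat, again with overlap through diquat 2 (log2 fold change 0.10, fold 1.07, 95% interval 0.910 to 1.26; edgeR adjusted p = 0.864, blocked 0.336). Without diquat 3 the log2 fold change was 0.02 for fat-3 and 0.05 for fat-4. For fat-3 it was 0.05 when control 1 was left out, 0.18 when control 3 was and 0.19 when diquat 2 was. For fat-4 it was 0.14 without diquat 2. The upper interval bounds of these 4 genes lay between a fold of 1.23 and 1.29, and the lower bounds between 0.856 and 0.910. Summed over fat-1 to fat-4, the level was 1557, 1489 and 1577 FPKM in control and 1754, 1492 and 1730 FPKM with diquat, and the delta-9 genes made up 24.4 ± 2.10% of the family's FPKM in control and 26.0 ± 1.40% with diquat, with overlap.

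**Figure D3:**
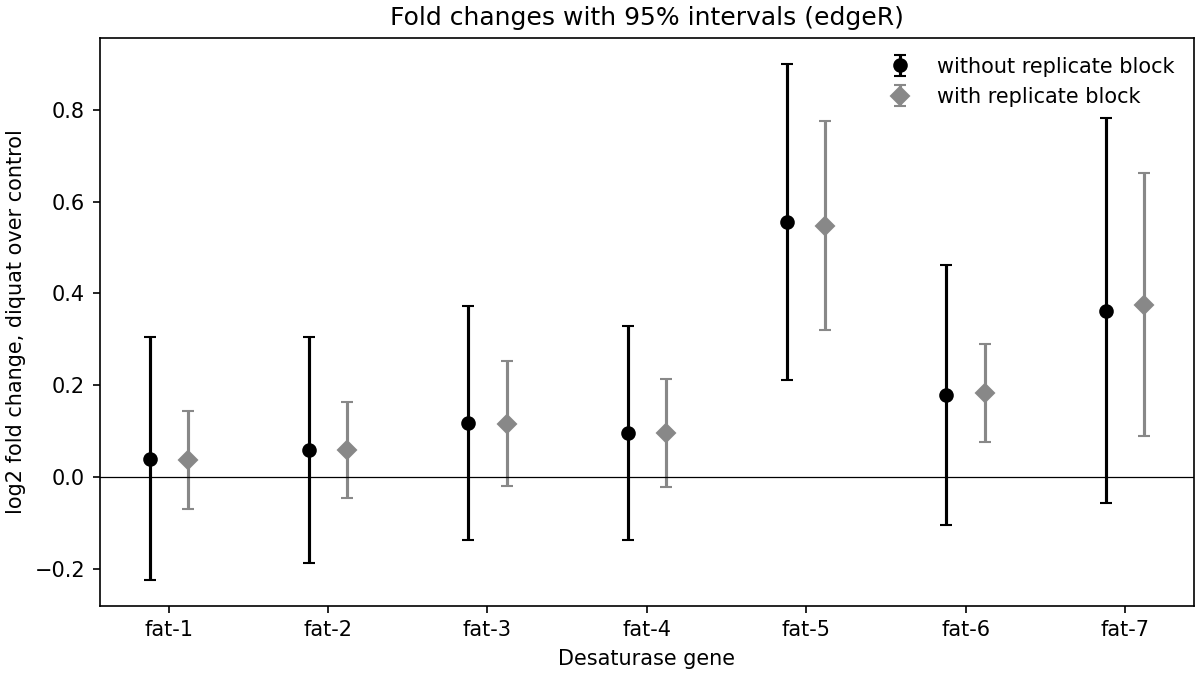
log2 fold change (diquat over control, edgeR) of the 7 desaturase genes with 95% intervals, without the replicate block (black circles) and with it (grey diamonds). Without the block the interval lies above 0 for fat-5 alone (0.21 to 0.90) and spans 0 for the other 6, and with it the intervals of fat-5, fat-6 and fat-7 lie above 0. Only fat-5 and fat-6 passed the adjusted blocked test.

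Differences between members in their response were described by the log2 ratio of each of the 21 pairs of members within a library. With 3 libraries against 3, the smallest two-sided p of the exact permutation test is 0.10, so no pair could pass a threshold of 0.05. This smallest value was reached by 4 pairs, whose diquat and control ratios did not overlap, and each of the 4 sets fat-5 against another member (fat-1, fat-2, fat-4 or fat-6). The Benjamini-Hochberg adjusted value over the 21 was 0.525 for each. The 4 pairs share fat-5, whose own levels did not overlap between groups, so they are not separate observations. The replicate numbers were not used here. The log2 ratio of fat-5 to fat-6 was -5.64 ± 0.09 in control and -5.28 ± 0.13 with diquat, and that of fat-1 to fat-5 was 5.89 ± 0.03 and 5.38 ± 0.16 (SD, n = 3). For fat-5 over fat-7 the means differed by 0.17 and the ranges overlapped.

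The profiles over the 6 libraries set library 3 apart for several members. After each gene was centred on its own mean log2 CPM, control 3 was at -0.38 for fat-5, -0.59 for fat-7, -0.30 for fat-6 and -0.13 for fat-1, and diquat 3 was the lowest diquat library for fat-5, fat-6, fat-1 and fat-2. For fat-3 and fat-4 diquat 3 was the highest of all 6 libraries. The spread was smallest for fat-2 (root mean square deviation 0.05) and largest for fat-5 (0.31) and fat-7 (0.30).

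Likeness was measured as the root mean square difference between centred log2 profiles over the 6 libraries, which share depth and scaling, and is given as a description. The closest members were fat-2 and fat-4 (0.064), then the chromosome neighbours fat-1 and fat-2 (0.074) and fat-3 and fat-4 (0.099), beside a median of 0.203 over the 21 pairs. Among 4551 named genes at 10 CPM or more, egg-1 (0.015) and npp-19 (0.017) were nearest to fat-1. cytb-5.2, a cytochrome b5 gene (0.020), and inx-8 (0.026) were nearest to fat-2, rheb-1 (0.023) and anat-1 (0.031) to fat-3, and ent-6 (0.030) and rnr-2 (0.031) to fat-4. spp-17, of the saposin-like family, was nearest to both fat-5 (0.157) and fat-7 (0.113), followed by the lysozyme gene lys-4 for fat-5 (0.164) and acl-12 for fat-7 (0.144). snt-2 (0.051) and ttr-53 (0.054) were nearest to fat-6. Genes that vary little are close to many others on this scale, so the small distances of fat-1 to fat-4 are less selective than those of fat-5 and fat-7.

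**Figure D4:**
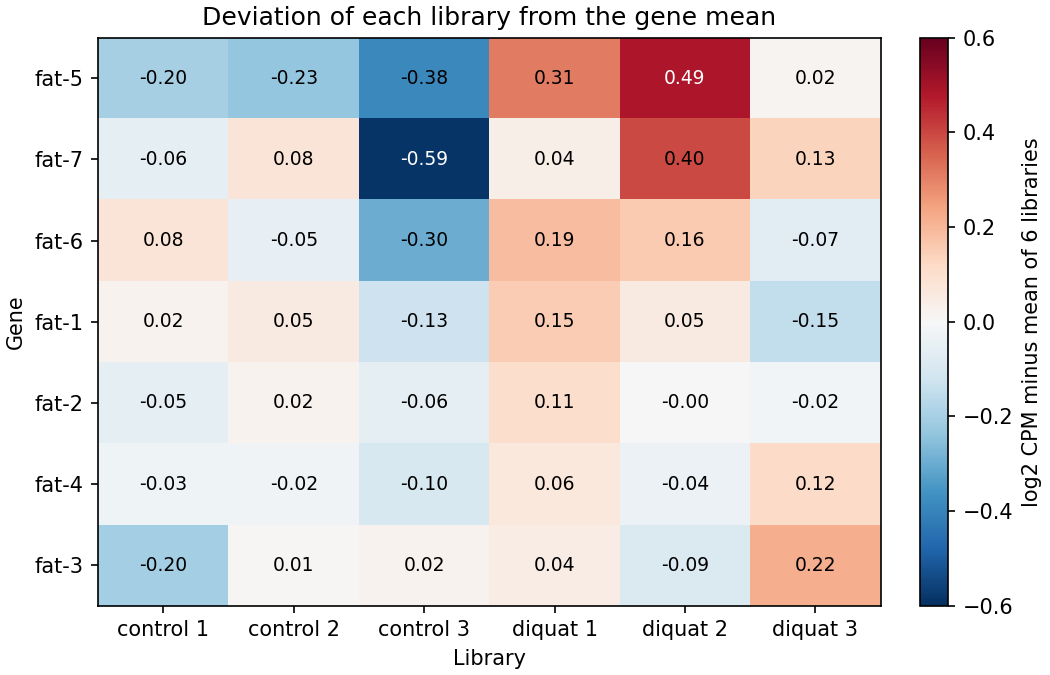
Deviation of each library from the gene's mean over the 6 libraries (log2 CPM, colour and printed value) for the 7 desaturase genes. The diquat columns are positive throughout for fat-5 and fat-7, control 3 is the lowest value of fat-5, fat-6 and fat-7, and fat-1 to fat-4 stay between -0.20 and 0.22.

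In the rest of the pathway no gene passed the test without the block. The lists were chosen with earlier results of these data known. Of 11 elongation genes tested, which lengthen the acyl chains between desaturation steps, 0 passed the test and the median log2 fold change was 0.00. With the block 1 was called higher, beside 4.51% of all tested genes. This was elo-5, needed for monomethyl branched-chain fatty acids, at 38.8, 39.2 and 40.5 CPM in control and 44.2, 44.2 and 62.4 CPM with diquat (log2 fold change 0.35, edgeR adjusted p = 0.686, blocked 0.0157). The elongase genes elo-1 and elo-2 were at 0.06 and 0.05 in log2 fold change, with edgeR adjusted p-values of 0.920 and 0.945. Of 5 fatty acid synthesis genes 0 passed with or without the block. On the log2 scale fasn-1, the fatty acid synthase, differed by 0.15 and pod-2, acetyl-CoA carboxylase, by -0.04, with edgeR adjusted p-values of 0.820 and 0.968. The 3 genes of electron supply through cytochrome b5 and the 5 eicosanoid enzymes, which act on polyunsaturated products, had 0 called with or without the block and medians of 0.06 and 0.01.

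Of 19 tested regulators of the desaturases, 0 passed and the median log2 fold change was 0.05. With the block 0 were lower, beside 4.0% of all tested genes, and 2 were higher, beside 4.51%. These were scp-1, the worm's SREBP-cleavage activating protein, at a log2 fold change of 0.37 (adjusted p = 0.819 in edgeR, blocked 0.00929), and iglr-2, the partner of the membrane fluidity sensor PAQR-2, at 0.33 (adjusted p = 0.819 in edgeR, blocked 0.0136). Unlike fat-5, both had their highest control level in control 3, at 32.4 CPM for scp-1 and 52.1 CPM for iglr-2. nhr-49 was at 82.3, 88.4 and 84.2 CPM in control and 91.4, 90.3 and 94.7 CPM with diquat. Its groups did not overlap, with diquat higher, which held for 1 of the 19 regulators and for 4.07% of all tested genes. Its log2 fold change of 0.12 did not pass (edgeR adjusted p = 0.829, blocked 0.335). sbp-1, mdt-15 and paqr-2 differed by 0.05, 0.05 and 0.02 on the log2 scale, with edgeR adjusted p-values of 0.954, 0.938 and 0.976. For nhr-80 the control libraries held 0, 2 and 1 counts and each diquat library 0, under a floor of 3 counts. It did not pass the filter on low counts and so was not tested. Whether its reads were assigned to another feature cannot be seen from the deposited values.

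Of 7 other targets of NHR-49, 0 passed, 3 had a log2 fold change above 0, and the median was -0.05. acs-2, an acyl-CoA synthetase gene of mitochondrial fatty acid oxidation, was at 20.6, 23.4 and 18.9 CPM in control and at 13.9, 16.8 and 10.7 CPM with diquat, with no overlap. Its log2 fold change was -0.61 (standard error 0.18; edgeR adjusted p = 0.233), and it was called lower with the block (adjusted p = 0.000174). It was the 1 member of that list called with the block, which called 4.0% of all tested genes lower. It was also the 1 member whose groups were apart with diquat lower, as were those of 6.68% of all tested genes.

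**Figure D5:**
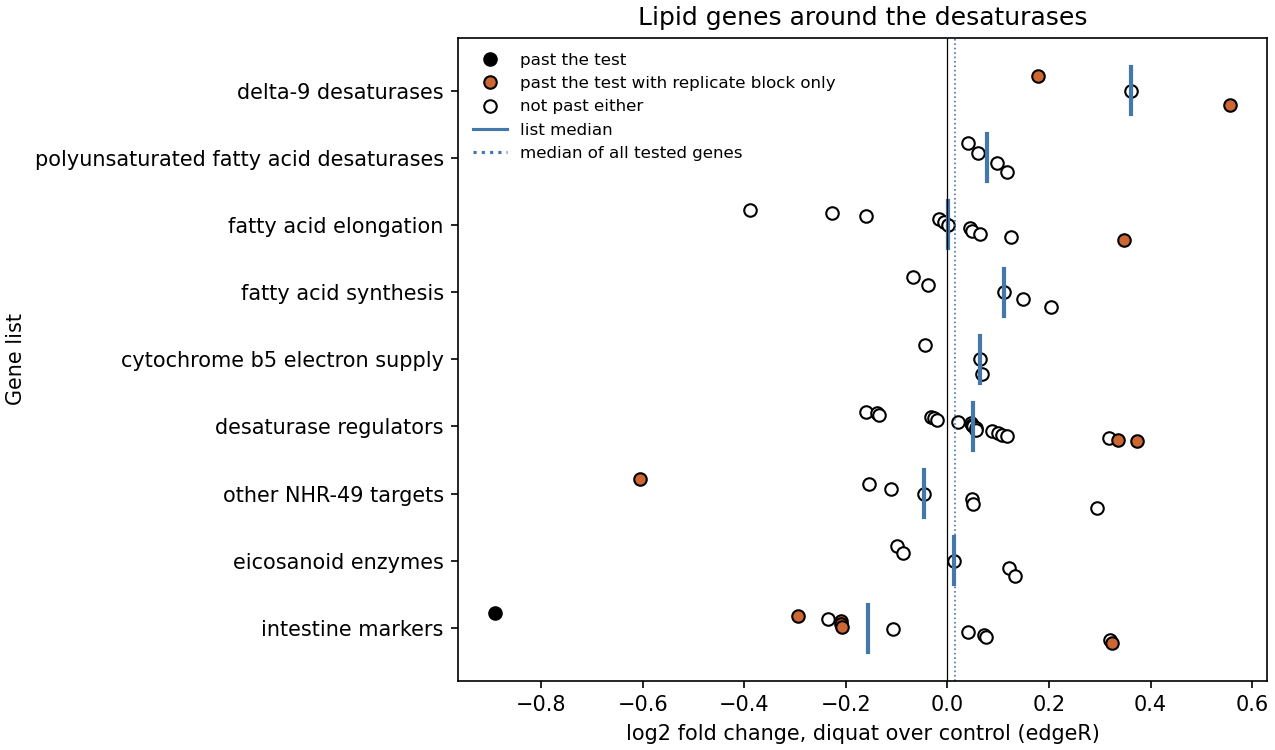
log2 fold change (diquat over control, edgeR) of each tested gene in the desaturase lists, the surrounding lipid lists and the intestine markers, with blue bars for list medians and a dotted line for the median of all tested genes (0.01). Filled symbols mark genes past the adjusted test without the block (black, ftn-1 among the intestine markers) or only with it (orange). The delta-9 desaturases have the highest list median (0.36) of the 9 lists drawn. With 3 genes in that list, the median is the value of fat-7 (edgeR adjusted p = 0.819). acs-2 lies at -0.61.

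The delta-9 genes are known to be expressed mainly in the intestine, and in whole worms fewer cells of a type and less RNA per cell cannot be told apart. Of 12 intestine markers 1 fell, the ferritin gene ftn-1 (log2 fold change -0.89, edgeR adjusted p = 0.0140), and 0 rose, beside 0.913% and 0.0% of all tested genes. The median was -0.16. With the block 5 fell (ftn-1, vha-6, act-5, asp-1 and cpr-1), beside 4.0% of all tested genes. In the same fit 1 rose (the peptide transporter gene pept-1), beside 4.51% of all tested genes. The summed level of the 12 markers was 8252 to 10317 CPM in control and 6682 to 8658 CPM with diquat, mostly from the protease gene asp-1. None of the 12 was at 0. Of the intestine regulators, elt-2 had a log2 fold change of 0.07 and elt-7 of -0.24 (edgeR adjusted p = 0.821), and for elt-7 the groups did not overlap, at 6.83 to 7.30 CPM in control and 4.95 to 6.71 CPM with diquat. ftn-1 and elt-7 were the 2 of 12 intestine markers whose CPM groups were apart, both with diquat lower, beside 6.68% of all tested genes. The intestine list had a median opposite in sign to that of the delta-9 genes, and its part in their differences was not tested. In FPKM the summed intestine markers did not overlap, at 6324 to 7097 in control and 5469 to 6024 with diquat. Set against that sum, which was itself lower with diquat, fat-5 was at 0.176%, 0.141% and 0.158% in control and at 0.291%, 0.278% and 0.259% with diquat. fat-6 was at 8.60%, 6.43% and 6.80% in control and at 10.8%, 8.86% and 9.85% with diquat. The groups did not overlap for either gene against this sum. The fat-6 level itself did overlap, at 544 FPKM in control 1 and 534 FPKM in diquat 2. The share of all genes that separate against the sum was not counted.

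Fold changes in these libraries also moved with transcript length, from a median of -0.12 in the shortest decile of exon length to 0.12 in the longest. The desaturases lie in deciles 4 to 6, whose medians were -0.02 to 0.03, with the delta-9 genes in decile 4. With each library's length trend removed, fat-5 had a log2 fold change of 0.58, fat-7 of 0.38, fat-6 of 0.19 and fat-1 to fat-4 of 0.02 to 0.09, and 0 of the 7 passed, beside 0.00755% of all tested genes higher and 0.694% lower. With the trend removed and the block, 3 of 7 were called higher, beside 3.41% of all tested genes, and 0 of 7 lower, beside 6.16%. In the same fit 2 fatty acid synthesis genes (pod-2 and the ATP-citrate lyase gene acly-1) and 2 regulators (hlh-30 and aak-2) were called lower, with log2 fold changes of -0.18, -0.18, -0.26 and -0.26 and edgeR adjusted p-values of 0.0234, 0.0269, 0.000639 and 0.00346. The regulators called higher were scp-1, iglr-2 and pcyt-1. The 3 desaturases were fat-5 (edgeR adjusted p = 1.28e-05), fat-6 (0.0152) and fat-7 (0.0373).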

How the data were processed

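The authors deposited 1 table for 6 libraries of whole-worm poly(A)-selected RNA. The build WBcel235 and the tools RSEM, HISAT2, fastp 0.18.0 and StringTie 1.3.1 are listed, without a role or an order, in the submitters' processing notes. Per the file headers the table holds a count per gene and library. The values are whole, but 94 are 0 beside an FPKM above 0, and they were taken to be estimated counts rounded by the authors before deposit. The deposited FPKM values are scaled by the authors to gene length and library total. The authors' log2 fold change of mean FPKM, p-value and FDR are deposited beside them. Neither the test behind these nor the strand setting was found in the labels or headers.

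The counts of all 20473 genes entered edgeR 4.0.16 (R 4.3.3). Its default filter on low expression left 13252 genes, which were scaled by TMM and fitted with group as the only term and a robust dispersion. The quasi-likelihood F-test was adjusted after Benjamini and Hochberg over these genes. Adjusted p-values come from it unless another fit is named. Standard errors and 95% intervals were derived from the fold change and F statistic and are approximate. Profiles used log2 CPM with a prior count of 2. Positions and exon lengths are those of Ensembl release 115. Total counts of 23390547 to 24593469 put 3 counts at 0.122 to 0.128 CPM, for counting error only. Scripts were tested on simulated data that held no replicate effect and no length trend.

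To check the pairing, each library was centred on its group's mean, and libraries with the same number were correlated over the tested genes, which gave 0.155, 0.1998 and 0.459. Each is over 0.1, the limit set for treating the numbers as pairs, though the labels state no shared origin. Control 1 and diquat 2 correlated at 0.208, above the 0.155 of control 1 and diquat 1. The correlations therefore do not single out the pairing of numbers 1 and 2, which was assumed from the matching numbers. All calls made with the block depend on this assumption. Replicates differed by more than sampling noise (chi-square per degree of freedom 15.5 to 30.1). Alternatives used DESeq2 1.42.0, limma 3.58.1, other scalings and filters, the block, the length trend and left-out libraries.

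The members and lists were chosen with earlier results of these data known. Genes named are all 7 members, list genes called with or without the block (up to 4 per list), 9 fixed genes and the 2 nearest genes of each member. elt-2, elt-7, vha-6, cpr-1, acly-1, hlh-30, aak-2 and pcyt-1 were added after their values were seen.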

Additional observations from a re-analysis of the deposited data

How the results depend on the processing

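fat-2 to fat-7 kept a log2 fold change above 0 under all 21 alternatives. fat-1 reversed under 2, at -0.020 without diquat 1 (range -0.020 to 0.106 when single libraries were left out) and at -0.014 with the block and without pair 1 (range -0.014 to 0.067 when pairs were). The number of desaturases called higher was 0 without the block under all its scalings, filters, tools and left-out libraries. It was 2 with the replicate block, 1 with DESeq2 and the block, 3 with the block plus the length correction, and 0, 1 and 2 with the block and without pairs 1, 2 and 3. None was called lower under any of these. Over all genes, 0 rises and 121 falls became 598 and 530 with the replicate block, 127 and 268 with DESeq2 and the block, and 452 and 816 with the block plus the length correction. Rises were 2 with DESeq2, 2 with no count filter and 1 with the length correction. Leaving out 1 library gave 0 to 1 rises and 27 to 116 falls, and leaving out 1 pair under the block gave 15, 329 and 436 rises and 181 to 482 falls (333 and 482 without pairs 2 and 3). Genes called in the lists beyond the family numbered 6, against 23 with the replicate block, 16 with DESeq2 and the block, 34 with the block plus the length correction, 7, 17 and 22 with the block and without pairs 1, 2 and 3, and 1 to 6 without single libraries (the fewest without control 2 or diquat 1). By CPM per kilobase of annotated exon fat-6 stood above fat-1 in the level order, at 502 and 488, and the other 5 kept their places. fat-5 and fat-7, at 149 to 434 counts per library, are the members whose precision depth limits most.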
